A study of Mus musculus with 16 samples.

Results

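The genes described here are 40 genes of glycolysis and of the transcriptional response to hypoxia in cell lines of mouse T-ALL, an acute leukaemia of T-cell precursors. They were taken by symbol from the deposited table of 13474 genes, in which each of the 40 had a row. By role they were 15 glycolytic enzymes, 2 lactate dehydrogenase subunits, 3 regulators of flux, 4 enzymes of glycogen and hexose phosphate, 3 genes of the hypoxia sensor, 4 hypoxia genes of the mitochondrion, 3 enzymes of collagen hydroxylation and oxidative folding, and 6 other hypoxia induced genes. Of the 40, 36 had at least 1 FPKM (a read count scaled to the length of the gene and the depth of the library) in at least 2 libraries and entered the tests. Eno2, Pfkfb4, Mxi1 and Gbe1 did not, and their values are given separately.

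RNA was sequenced from 16 cultures, each 1 library, with no culture sequenced again. The resistant cultures were 3 derivatives resistant to the nucleoside analogue cytarabine (lines 7298, 2883 and 2869), 3 to the microtubule poison vincristine (2883, 2696 and 2869), 2 to the topoisomerase poison etoposide (2883 and 2696), 2 to the glucocorticoid prednisone (2883 and 2641) and 1 to the antifolate methotrexate (2883). They were set against the 5 parental cultures, labelled PBS, of lines 7298, 2883, 2869, 2696 and 2641. Lines 2883, 2869, 2696 and 2641 came from Mcm2cre/cre mice, a hypomorph of Mcm2, which encodes part of the replicative helicase. Line 7298 was SCL/LMO1 transgenic. The genotype of a line is shared by its parental and resistant cultures. Each line is a single culture, the tissue of origin is given as thymus, and the libraries share 1 batch label. All derivatives from 1 line were set against the same parental library, so their ratios are not independent, and p-values rest on the spread between single cultures.

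Glycolysis splits glucose into pyruvate, and lactate dehydrogenase reduces pyruvate to lactate, which restores the oxidised cofactor that the pathway needs. Hypoxia inducible factor 1 (HIF1) is a transcription factor whose alpha subunit, encoded by Hif1a, is hydroxylated by the oxygen-dependent prolyl hydroxylases of the Egln family and then destroyed through the Vhl ubiquitin ligase. When oxygen is low the subunit persists, pairs with Arnt and binds hypoxia response elements near its target genes. Many glycolytic enzymes are such targets, and in T cells the pathway is also induced by growth signals and Myc.

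The core of a hypoxia response element is ACGTG or GCGTG, and the promoters of 5 members are shown to let a reader see where that core lies in 4 members that the comparisons turn on (Pgk1, Ldha, Bnip3 and Ankrd37) and in Ldhb, the other lactate dehydrogenase subunit, which was lower in the etoposide derivative of 2883 where Ldha was higher. Sequences are from RefSeq on the GRCm38.p6 build, 250 bases before to 50 bases after the first listed start of each gene, 5′ to 3′ on the strand of the gene. Capitals mark each match to ACGTG or GCGTG on either strand, so a match on the opposite strand reads CACGT or CACGC.
Pgk1, chrX:106186850-106187149, plus strand: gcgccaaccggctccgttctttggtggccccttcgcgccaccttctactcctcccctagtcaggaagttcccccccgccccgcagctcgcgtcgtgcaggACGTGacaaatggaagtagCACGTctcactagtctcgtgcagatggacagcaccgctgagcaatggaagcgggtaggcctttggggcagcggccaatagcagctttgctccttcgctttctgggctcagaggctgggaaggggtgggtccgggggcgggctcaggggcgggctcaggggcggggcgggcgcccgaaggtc
Ldha, chr7:46845554-46845853, plus strand: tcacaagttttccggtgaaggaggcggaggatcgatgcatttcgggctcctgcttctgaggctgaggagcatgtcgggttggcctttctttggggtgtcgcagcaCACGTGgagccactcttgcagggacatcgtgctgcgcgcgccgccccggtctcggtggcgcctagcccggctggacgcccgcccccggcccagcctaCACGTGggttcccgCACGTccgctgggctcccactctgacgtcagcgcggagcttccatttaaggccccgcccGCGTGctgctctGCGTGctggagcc
Bnip3, chr7:138909457-138909756, minus strand: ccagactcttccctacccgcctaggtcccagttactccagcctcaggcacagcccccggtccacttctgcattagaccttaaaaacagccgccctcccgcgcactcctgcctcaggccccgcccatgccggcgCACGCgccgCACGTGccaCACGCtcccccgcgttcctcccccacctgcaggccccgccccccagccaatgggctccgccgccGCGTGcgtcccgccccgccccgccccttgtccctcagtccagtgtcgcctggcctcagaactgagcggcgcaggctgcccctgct
Ankrd37, chr8:45999801-46000100, minus strand: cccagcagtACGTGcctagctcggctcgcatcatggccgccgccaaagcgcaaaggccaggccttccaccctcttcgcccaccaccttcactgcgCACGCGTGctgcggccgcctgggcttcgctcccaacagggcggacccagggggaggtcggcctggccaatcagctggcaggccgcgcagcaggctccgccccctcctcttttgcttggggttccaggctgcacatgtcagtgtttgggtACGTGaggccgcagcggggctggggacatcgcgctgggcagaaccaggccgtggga
Ldhb, chr6:142507908-142508207, minus strand: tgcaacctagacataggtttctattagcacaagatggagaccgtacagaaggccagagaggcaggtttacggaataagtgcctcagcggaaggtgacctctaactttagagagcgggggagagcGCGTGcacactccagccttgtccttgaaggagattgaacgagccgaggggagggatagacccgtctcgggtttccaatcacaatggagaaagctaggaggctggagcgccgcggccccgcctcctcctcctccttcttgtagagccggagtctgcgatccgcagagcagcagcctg
Counting both strands, Ldha held 7 matches, Bnip3 5, Ankrd37 4, Pgk1 2 and Ldhb 1; CACGTG, found in Ldha and Bnip3, reads ACGTG on either strand and was counted on both.

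RefSeq promoters were found for 38 of the 40 members, 56 promoters in all, with Ero1l listed as Ero1a. At least 1 match to the core lay in a promoter of 33 of these 38 genes (86.8%). The share was 69.5% of 6455 genes past the expression filter and 46.7% of all 27025 genes with a RefSeq promoter. A gene counted if any of its promoters matched, and members had more promoters per gene than the 6455 genes, which had 8029 promoters. Counted by promoter, either core was present in 75.0% for members and 64.5% for genes past the filter. By promoter, ACGTG was present in 53.6% of the members' promoters and 27.5% of those of genes past the filter, whereas GCGTG was present in 28 of the 56 members' promoters and in 52.6% of those of genes past the filter. A match is a description of the letters in this window and not evidence of binding.

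In every library the T-cell genes Cd3e, Cd3d, Cd3g, Lck, Thy1 and Rag1 were expressed, with lowest values between 13.6 and 74.2 FPKM, while Cd4 and Cd5 were near 0 in most. The 12 T-line markers summed to 3401 to 6122 CPM in resistant cultures and 3296 to 6623 CPM in parental cultures. Of the markers of other cell types, Cd79b reached 3.86 FPKM (the vincristine derivative of 2869), Pecam1 2.29 FPKM (the vincristine derivative of 2696) and Itgam 0.593 FPKM (the parental culture of 2696). These were the values used from lists of 5 B-cell, 5 stromal and endothelial and 5 myeloid markers; no value was used for the 4 erythroid and 4 thymic epithelial markers listed, so the levels of those cells are not described. Depth was 14066000 to 18956000 reads in the resistant libraries and 12142000 to 13498000 in the parental ones, so depth separated these groups completely. In bulk RNA, fewer cells of a type and less RNA per cell cannot be told apart.

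In the parental cultures the members spanned a wide range of abundance. On a scale that can be compared between genes, CPM (counts scaled to library depth) per kilobase of exon, Ldha had the highest median of the 5 parental libraries (857, range 559.7 to 929), followed by the pyruvate kinase gene Pkm (811, 597 to 961) and the aldolase gene Aldoa (557, 201 to 792). The triose phosphate isomerase gene Tpi1 (430.1, 242 to 466) and the phosphoglycerate kinase gene Pgk1 (376, 177 to 385) came next. The ranges of these neighbours overlapped. Reads on near-identical copies are left out of these levels, and as copies held 69.9% to 72.2% of the reads on Pgk1 and its copies, and most of those of Eno1 and Gapdh, the place of these 3 genes in the order is uncertain. At the other end, Eno2, Car9, Aldoc and Pfkfb4 had medians at or below 0.457. The parental culture of 2883 held the lowest of the 5 parental values for 21 of 36 members (16.0% of all genes past the filter), and that of 2869 held it for 13 of 36 (22.0% of all genes). The highest value was in the parental culture of 2696 for 14 members, in that of 7298 for 12 and in that of 2641 for 8 (20.0%, 16.3% and 20.2% of all genes).

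The share of all reads taken by the 40 genes differed widely between cultures. It was highest in the etoposide derivative of 2883 (2.16%) and lowest in the vincristine derivative of 2696 (0.523%), and lay between 1.11% and 2.01% in the parental cultures. The resistant culture held the smaller share in 7 of 11 pairs. The 3 vincristine derivatives held 0.749%, 0.523% and 0.839% in lines 2883, 2696 and 2869, against 1.11%, 2.01% and 1.28% in the parental cultures of these lines, a ratio of 0.673, 0.260 and 0.654. Among the cytarabine derivatives the ratio was 0.441 in line 7298, 1.09 in line 2883 and 0.506 in line 2869. In etoposide derivatives it was 1.94 in line 2883 and 0.791 in line 2696, in prednisone derivatives 1.19 in line 2883 and 0.639 in line 2641, and in the methotrexate derivative of 2883 1.56. The glycolytic enzymes and lactate dehydrogenase made up most of each share, 1.70% of all reads in the etoposide derivative of 2883 and 0.401% in the vincristine derivative of 2696.

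**Figure D1:**
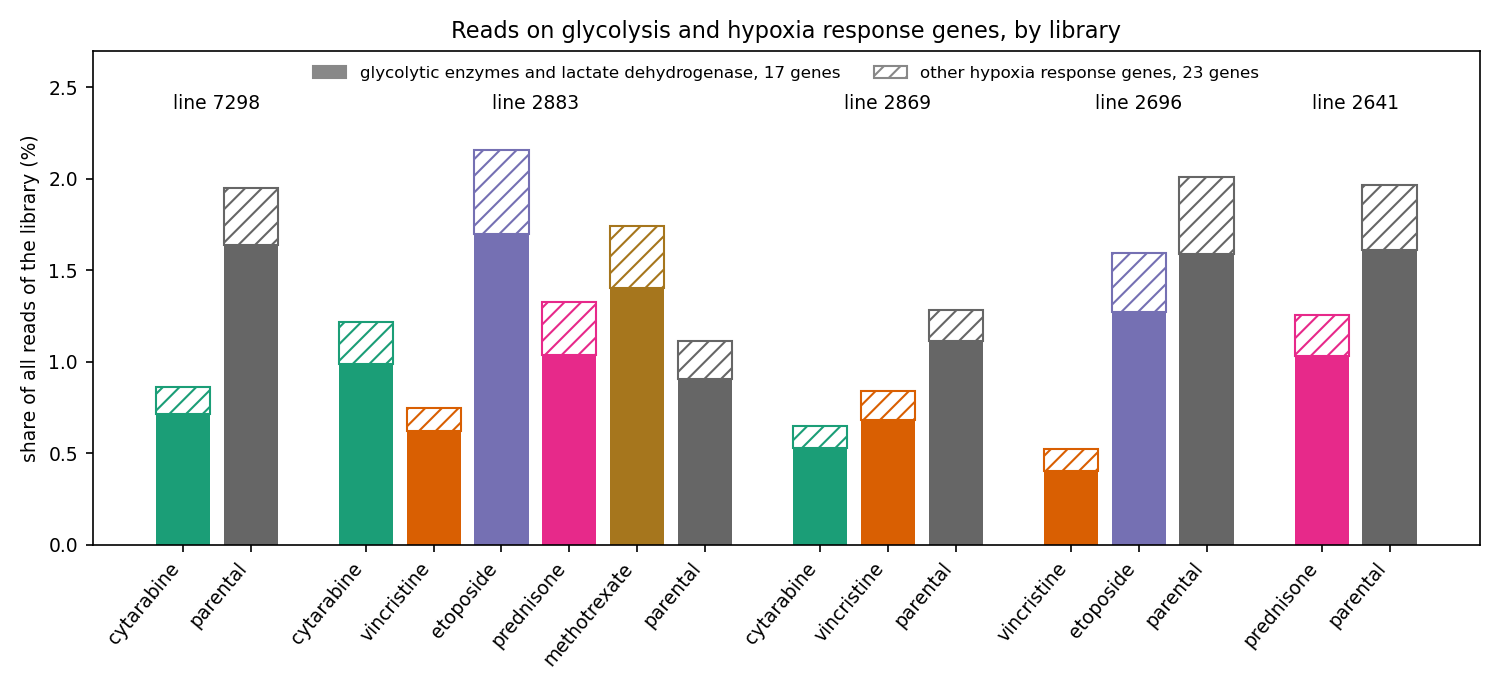
Share of all reads (percent, vertical axis) on the 40 genes in each library, grouped by line with the resistant derivatives left of the parental culture; solid bars are the 17 glycolytic enzymes and lactate dehydrogenase subunits and hatched bars the 23 other genes, and each bar is 1 library. The vincristine derivatives stand below their parental cultures in each of their 3 lines, whereas the etoposide derivative of 2883, at 2.16%, is the highest of the 16.

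The vincristine derivative of 2696 had low levels of nearly all these genes, that of 2883 a smaller difference, and that of 2869 a median close to that of all genes. The median log2 ratio to the parental library was -1.70 in line 2696, -0.50 in line 2883 and -0.11 in line 2869, beside 0.00, -0.01 and -0.07 over all genes, and in line 2869 there were 15 members higher and 21 lower. Of the 36 members tested, 33 had a negative log2 fold change in the model, and the median was -0.74, beside -0.02 over all 9309 genes tested. Members at least 2-fold lower than in the parental library numbered 29 in line 2696 (8.59% of all genes), 7 in line 2869 (6.68%) and 5 in line 2883 (6.80%), and those at least 2-fold higher numbered 0, 4 and 2 (4.55%, 6.41% and 6.26%). In each of the 3 lines 20 members were lower (19.5% of all genes). They included 9 of the glycolytic enzymes, Ldha and both prolyl hydroxylases. The stromal and endothelial marker Pecam1 was highest of the 16 libraries in the vincristine derivative of 2696, with 2.29 FPKM against 1.51 FPKM in its parental culture, and mitochondrial genes took 5.53% of reads in the vincristine derivative of 2883, the highest share of the 16, against 3.86% in its parental culture. In lines 2696 and 2869 the mitochondrial share was 3.13% and 3.14% in the vincristine derivatives, against 3.10% and 3.84%; the part of either measure in these differences was not tested.

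Among the enzymes, Pgk1, which makes the first ATP of the pathway (chromosome X, 106187100 to 106203700 on mm10), had 10.1, 8.06 and 13.9 FPKM in the vincristine derivatives of 2883, 2696 and 2869, against 23.9, 51.3 and 41.3 FPKM in their parental cultures. The resistant and parental values did not overlap. Eno1, the enolase that forms phosphoenolpyruvate (chromosome 4, 150236721 to 150248880), had 14.5, 9.07 and 22.9 FPKM in the derivatives, against 30.3, 86.9 and 67.5 FPKM. Tpi1, which interconverts the triose phosphates (chromosome 6, 124810586 to 124814297), had 105, 59.9 and 129 FPKM in the derivatives, against 179, 345 and 271 FPKM. For each of these genes all 3 derivatives lay below all 3 parental cultures, and line 2696 held the lowest derivative value. The log2 fold changes were -1.81 ± 0.32 for Pgk1, -1.99 ± 0.41 for Eno1 and -1.62 ± 0.35 for Tpi1 (SE, n = 3 derivatives). Limma adjusted p-values over all genes were 0.113, 0.146 and 0.151, so none was called.

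Ldha, the main subunit of lactate dehydrogenase (chromosome 7, 46841475 to 46855628), had 75.7, 56.3 and 66.2 FPKM in the vincristine derivatives of 2883, 2696 and 2869, against 130.9, 200.5 and 146 FPKM in their parental cultures. The groups did not overlap, and the log2 fold change was -1.26 ± 0.22 (limma adjusted p = 0.113). Egln1, the main oxygen-sensing prolyl hydroxylase and itself induced by HIF1 (chromosome 8, 124908587 to 124949325), had 0.873, 1.37 and 2.25 FPKM in the derivatives, against 2.51, 4.75 and 2.91 FPKM. It differed by -0.89 ± 0.22 on the log2 scale (adjusted p = 0.191 by limma). Hk1, the hexokinase of most tissues (chromosome 10, 62268855 to 62379909), went the other way, with 1.27, 2.36 and 4.51 FPKM in the derivatives, against 1.00, 1.70 and 1.64 FPKM. It was the 1 member higher in all 3 lines (14.8% of all genes), with a log2 fold change of 0.45 ± 0.22 and ranges that overlapped (limma adjusted p = 0.400).

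Of the mitochondrial, collagen and folding, and other hypoxia genes, Higd1a, Fam162a, P4ha1, P4ha2, Ero1l, Ankrd37 and Kdm3a were lower in all 3 vincristine derivatives, whereas Bnip3, Bnip3l, Ndrg1, Vegfa and Car9 differed in direction between lines. P4ha2 had few reads in lines 2883 and 2869, 53 against 51 and 7 against 12 before scaling for depth. Its direction in these lines is uncertain. P4ha1 in line 2869 was close to the parental level, at 2.63 FPKM against 2.78 FPKM. Bnip3, a mitophagy receptor of the outer mitochondrial membrane, had 0.984, 0.0843 and 1.22 FPKM in the vincristine derivatives of 2883, 2696 and 2869, against 1.90, 3.15 and 0.812 FPKM in their parental cultures. In line 2696 this was 26 reads against 771, a ratio of 0.0267 (95% exact binomial interval 0.0173 to 0.0394, counting error only), whereas in line 2869 the derivative was higher, with 393 reads against 205. Ndrg1, a gene induced by hypoxia and stress, had 2.31, 0.260 and 1.64 FPKM in the derivatives, against 9.34, 11.3 and 1.51 FPKM. Ankrd37, a small ankyrin repeat protein, had 0.289, 0.336 and 0.740 FPKM, against 1.58, 4.58 and 1.64 FPKM, with no overlap between the groups. The lowest of the 16 values was in the vincristine derivative of 2696 for 12 of the 36 members (4.80% of all genes).

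Limma called 0 of 36 members for vincristine, as it called 0% of all 9309 genes. At an unadjusted p under 0.05, 19 members were lower (7.91% of all genes) and 0 higher (5.94%). By role these were 8 of 14 tested glycolytic enzymes, 1 of 2 lactate dehydrogenase subunits, 1 of 2 flux regulators, 0 of 3 genes of glycogen and hexose phosphate, 2 of 3 genes of the hypoxia sensor, 3 of 4 mitochondrial hypoxia genes, 1 of 3 genes of collagen hydroxylation and oxidative folding and 3 of 5 other hypoxia induced genes. Without the line term limma called 1 member, Pgk1 (log2 fold change -1.92 ± 0.27, adjusted p = 0.0422; 0.0422 to 0.866 over the alternatives for the named members).

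The cytarabine derivatives had lower levels in lines 7298 and 2869 and a median near the parental level in line 2883. The median log2 fold change of the members was -0.58, beside 0.02 over all genes, with 32 of 36 negative. Members at least 2-fold lower numbered 24 in line 7298 (5.44% of all genes), 9 in line 2869 (4.51%) and 2 in line 2883 (5.45%), and those at least 2-fold higher numbered 0, 1 and 4 (2.61%, 6.80% and 8.16%). Lower in each of the 3 lines were 12 members (15.0% of all genes), and 1 was higher (16.6%), again Hk1.

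Pgk1 had 15.1, 20.5 and 10.8 FPKM in the cytarabine derivatives of 7298, 2883 and 2869, against 52.1, 23.9 and 41.3 FPKM in their parental cultures. Eno1 had 20.8, 29.8 and 17.5 FPKM in the derivatives, against 88.5, 30.3 and 67.5 FPKM. For both genes the derivative of 2883 stood close to its parental culture, at 0.857 and 0.981 of its level, while the other ratios lay between 0.235 and 0.291. Ldha had 103, 119 and 68.3 FPKM, against 217, 130.9 and 146 FPKM. The mitochondrial genes Fam162a, a HIF1 target that promotes apoptosis, and Higd1a, which supports cytochrome oxidase under hypoxia, were also lower. Fam162a had 1.40, 1.71 and 1.15 FPKM in the derivatives, against 2.88, 2.47 and 2.49 FPKM, and Higd1a had 3.36, 5.15 and 3.91 FPKM, against 7.77, 6.25 and 7.09 FPKM. For Ldha, Fam162a, Higd1a, Pgk1 and Eno1 every derivative lay below every parental culture of these lines. These genes were chosen for a small p and 1 sign, which favours such a gap, and its share over all genes was not counted. The log2 fold changes were -1.43 ± 0.32 for Pgk1, -1.56 ± 0.41 for Eno1, -0.86 ± 0.22 for Ldha, -0.70 ± 0.17 for Fam162a and -0.77 ± 0.20 for Higd1a (SE, n = 3 derivatives), each with a limma adjusted p of 0.404. Hk1 had 1.16, 1.71 and 2.25 FPKM in the derivatives, against 1.16, 1.00 and 1.64 FPKM, which on the log2 scale differed by 0.13 ± 0.22 (adjusted p = 0.842 by limma).

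Members that differed in direction between the cytarabine derivatives included Pfkp, the platelet-type phosphofructokinase, and Vegfa, the angiogenic growth factor; they are named for this contrast after their values were seen. Pfkp had 1.92, 8.40 and 2.12 FPKM in the derivatives of 7298, 2883 and 2869, against 5.71, 2.18 and 3.18 FPKM. Vegfa had 1.67, 6.96 and 2.02 FPKM, against 4.23, 1.82 and 2.66 FPKM. In both genes line 2883 was higher and the other lines were lower. Limma called 0 of 36 members for cytarabine and 0% of all genes; 13 members were lower at an unadjusted p under 0.05 (5.22% of all genes) and 0 higher (5.92%). The 13 were 6 glycolytic enzymes, Ldha, Pgm1, Egln3, 3 mitochondrial hypoxia genes and Ankrd37.

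**Figure D2:**
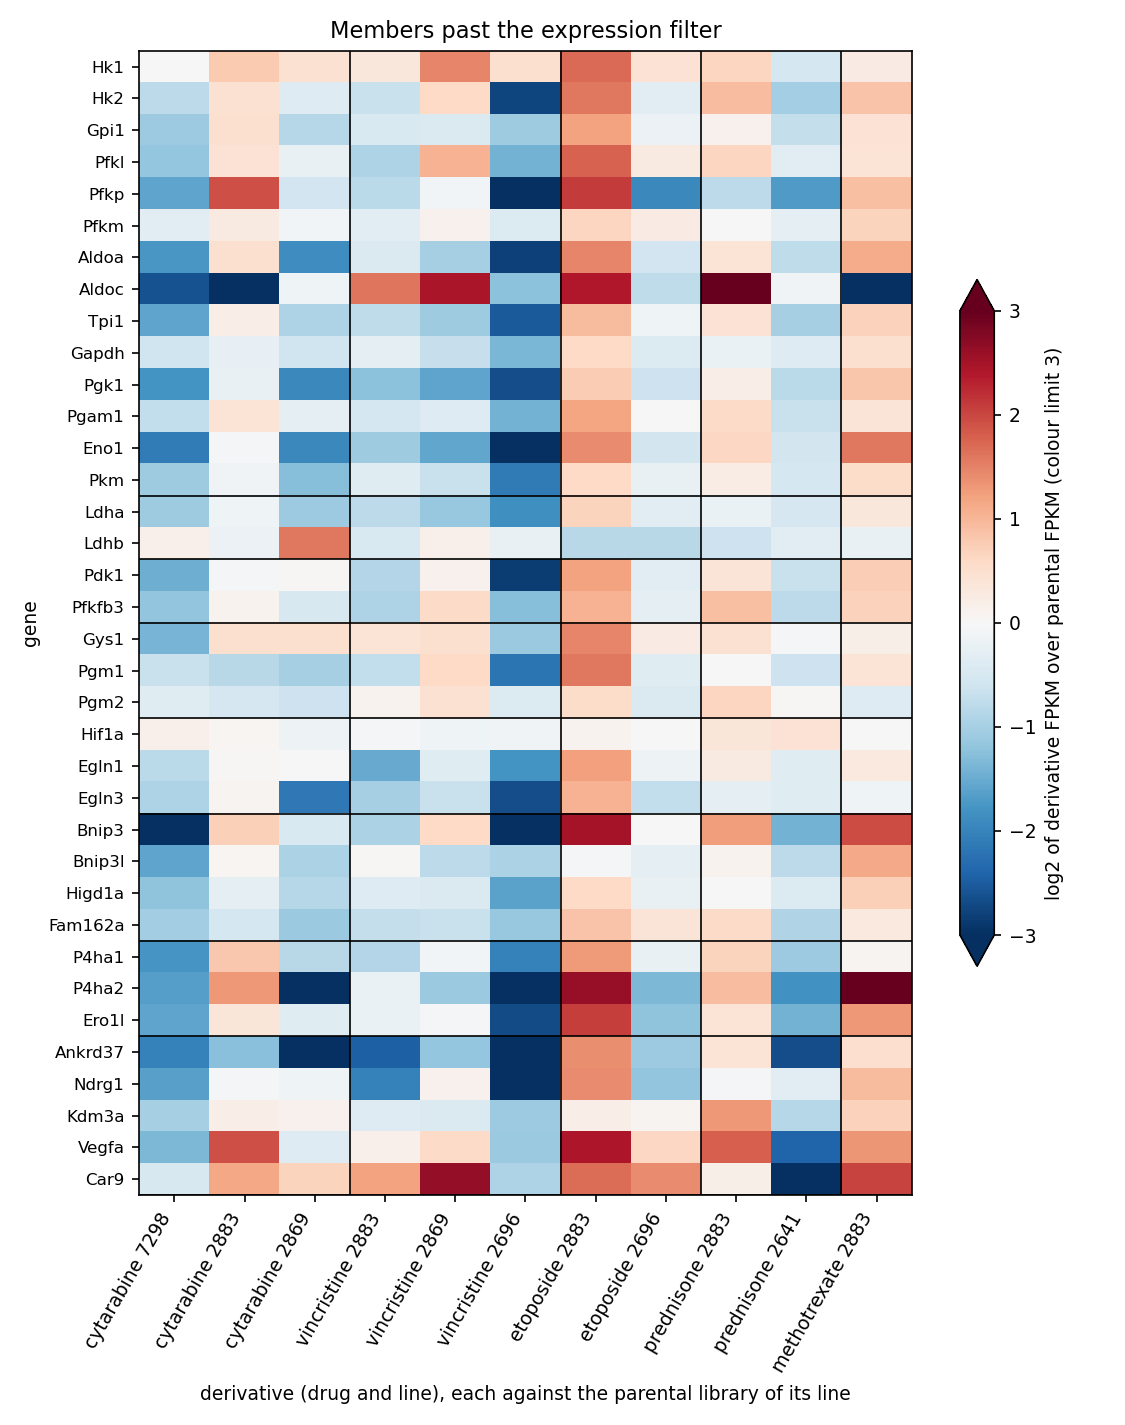
Log2 ratio of FPKM in each derivative to FPKM in the parental library of its line (colour, limited at 3 in either direction) for the 36 members past the filter, ordered by role down the page; columns are the 11 derivatives grouped by drug, each 1 library. The vincristine derivative of 2696 and the cytarabine derivative of 7298 are lower for nearly every member, the etoposide derivative of 2883 is higher for all but 2, and Hif1a is pale throughout.

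The etoposide derivatives had higher levels in line 2883 and slightly lower ones in line 2696. The median log2 fold change was 0.28, beside -0.03 over all genes. In the derivative of 2883, 23 members were at least 2-fold higher (9.14% of all genes) and 0 lower (7.91%), and the median ratio to the parental library was 2.34. In that of 2696, 1 member was at least 2-fold higher (3.06%) and 5 were lower (4.50%), and the median ratio was 0.814. Higher in both lines were 11 members (24.1% of all genes) and lower in both were 2 (30.2%), counted without reads on near-identical copies. The parental culture of 2883 held the lowest of the 5 parental values for 21 of 36 members (16.0% of all genes). Median ratios to it were 1.53 in its methotrexate derivative, 1.33 with prednisone, 1.07 with cytarabine and 0.707 with vincristine.

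Hk1 had 3.25 and 2.31 FPKM in the etoposide derivatives of 2883 and 2696, against 1.00 and 1.70 FPKM in their parental cultures. Pfkl, the liver-type phosphofructokinase, had 18.8 and 11.9 FPKM, against 5.54 and 9.80 FPKM, and Pfkm, the muscle type, had 2.69 and 1.40 FPKM, against 1.73 and 1.19 FPKM. Gys1, the glycogen synthase of most tissues, had 2.97 and 2.98 FPKM in the derivatives, against 1.07 and 2.52 FPKM. Derivative and parental values did not overlap for Hk1, Pfkl or Gys1, and overlapped for Pfkm. Car9, a carbonic anhydrase of the cell surface that is strongly induced by hypoxia, was abundant in line 2696 alone, with 18.8 FPKM in its etoposide derivative against 7.06 FPKM in its parental culture; in line 2883 it had 19 reads against 5. Ldhb, the other lactate dehydrogenase subunit, was lower in both lines, with 7.78 and 3.06 FPKM against 13.8 and 5.47 FPKM. The mitophagy receptor Bnip3l had 5.83 and 6.92 FPKM against 5.94 and 8.54 FPKM. Its ratio in line 2883 was close to 1, at 0.981, and became 1.06 with the reads of its near-identical copy, so its direction in that line is uncertain. The log2 fold changes were 0.71 ± 0.26 for Hk1, 0.55 ± 0.24 for Gys1, 0.81 ± 0.36 for Car9, 1.00 ± 0.49 for Pfkl, 0.27 ± 0.14 for Pfkm, -0.58 ± 0.25 for Ldhb and -0.35 ± 0.27 for Bnip3l (SE, n = 2 derivatives). Limma called 0 of 36 members and 0% of all genes, with adjusted p-values from 0.532 to 0.692 for these 7 genes. At an unadjusted p under 0.05, 3 members were higher (3.59% of all genes) and 1 was lower (5.30%). Car9 was among the 3. It reached 1 FPKM only in libraries of line 2696, so it entered the test through the line where it was high. Its log2 fold change ran from 0.077 to 1.65 with 1 library left out.

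The members furthest above the parental culture in the etoposide derivative of 2883 were P4ha2, Bnip3, Vegfa, Aldoc, Pfkp and Ero1l, named after their values were seen. Bnip3 had 10.7 FPKM against 1.90 FPKM, a ratio of 5.67 (95% interval 5.12 to 6.28), and Ero1l, an oxidase of the endoplasmic reticulum, had 13.1 FPKM against 3.11 FPKM, a ratio of 4.21 (3.97 to 4.46). In line 2696 Ero1l was lower in the etoposide derivative, with 7.47 FPKM against 17.2 FPKM, as was Pfkp, with 1.21 FPKM against 4.62 FPKM, while Bnip3 was at 3.20 FPKM against 3.15 FPKM. The median of the fold changes was 0.08 without the etoposide derivative of 2883 and 0.03 without the parental culture of 2883, and 0.51 and 0.67 without the derivative and parental culture of 2696.

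Etoposide and vincristine derivatives were available from the same parental culture in lines 2883 and 2696, and were set against each other there. Their drug terms were also compared in the model of all lines. The vincristine derivative of 2869, a line without an etoposide derivative, enters the model values, so these are not a comparison within pairs. Model values are on the log2(FPKM + 1) scale, unlike the log2 ratios within a line. The etoposide derivative was higher for 34 of 36 members in line 2883 and 33 of 36 in line 2696, and at least 2-fold higher for 25 (7.99% of all genes) and 26 (7.52%); none was 2-fold lower in either line (5.82% and 3.82%). The median log2 ratio was 1.82 in line 2883 and 1.67 in line 2696, beside -0.05 and -0.03 over all genes. In the model the median difference was 1.10, beside -0.02 over all genes. Higher at an unadjusted limma p under 0.05 were 25 members (4.96% of all genes) and 0 were lower (4.86%). The 25 included Car9, which reached 1 FPKM only in libraries of line 2696. Limma called 0 of 36 members and 0% of all genes; the smallest adjusted p of a member was 0.327.

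Ldha had 207 and 158 FPKM in the etoposide derivatives of 2883 and 2696, against 75.7 and 56.3 FPKM in the vincristine derivatives, a ratio of 2.73 and 2.81. Pgk1 had 40.4 and 33.2 FPKM, against 10.1 and 8.06 FPKM, and Eno1 had 81.5 and 59.4 FPKM, against 14.5 and 9.07 FPKM. Egln1 had 5.88 and 4.30 FPKM in etoposide derivatives, against 0.873 and 1.37 FPKM, and Fam162a had 4.51 and 4.08 FPKM, against 1.52 and 1.42 FPKM. For these 5 genes both etoposide values lay above both vincristine values, with ratios in the 2 lines that were close to each other for Ldha, Pgk1 and Fam162a. The model differences were 1.37 ± 0.27 for Ldha, 1.74 ± 0.39 for Pgk1, 2.29 ± 0.50 for Eno1, 1.37 ± 0.27 for Egln1 and 1.03 ± 0.21 for Fam162a (SE, limma adjusted p = 0.327 each). Among the hypoxia genes of other roles, Bnip3 was 10.9-fold higher with etoposide in line 2883 and 38.1-fold higher in line 2696, Ndrg1 10.9-fold and 19.2-fold, and Ankrd37 had 4.14 and 2.15 FPKM in etoposide derivatives, against 0.289 and 0.336 FPKM. Ldhb was lower, with 7.78 and 3.06 FPKM in etoposide derivatives against 10.1 and 4.66 FPKM in vincristine derivatives, a model difference of -0.37 ± 0.26 (limma adjusted p = 0.635). Without the line term that of Ldhb was 0.03.

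**Figure D3:**
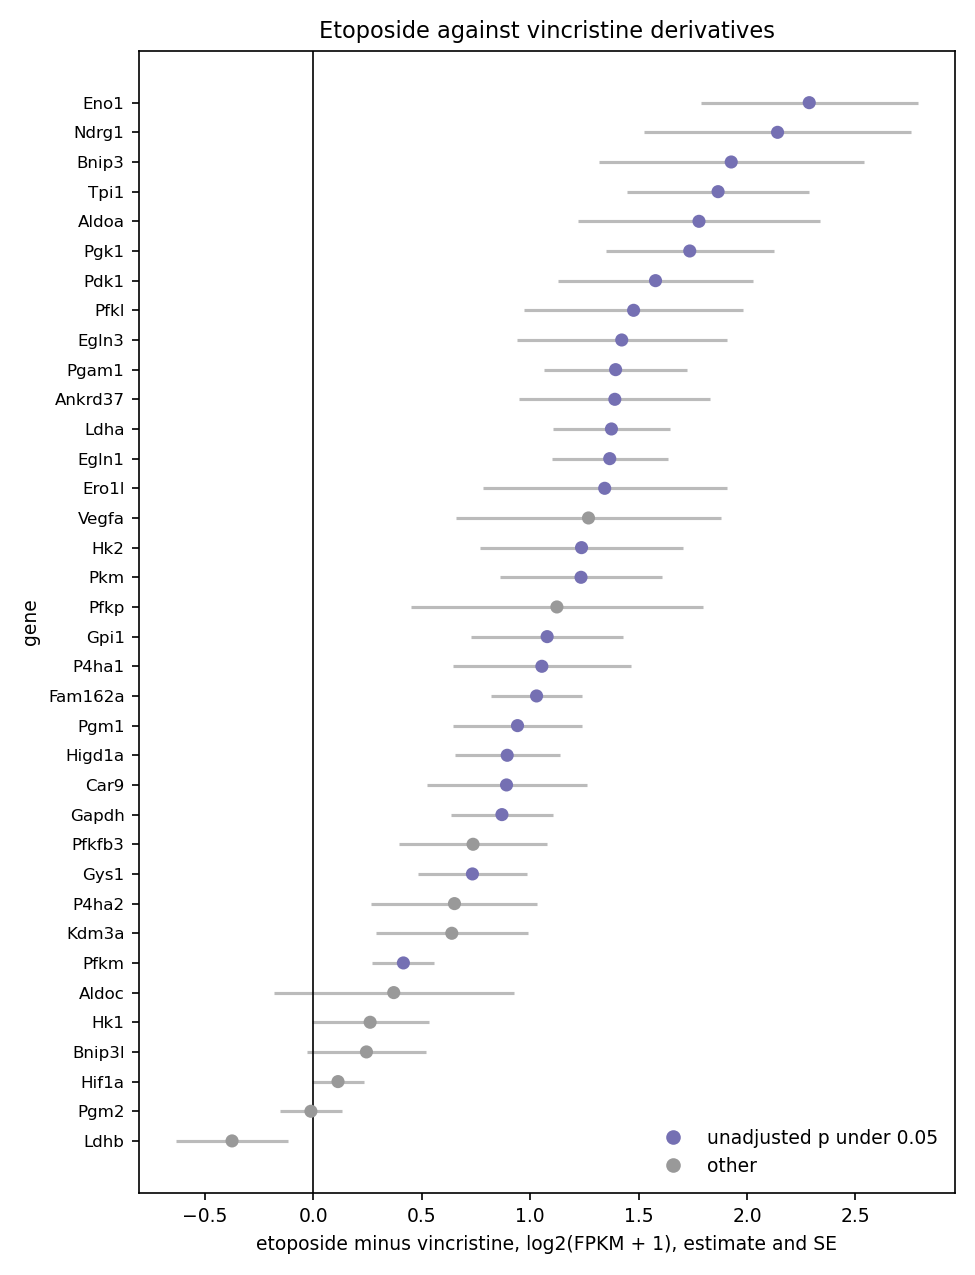
Difference between etoposide and vincristine derivatives in the model, on the log2(FPKM + 1) scale (horizontal axis), for the 36 members tested; points are estimates, lines are 1 SE to either side, and colour marks an unadjusted p under 0.05. Of the 36 estimates 34 lie above 0, with Pgm2 and Ldhb below it, and none passed after adjustment over all genes.

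Cytarabine and vincristine derivatives of the same line did not differ in 1 direction. In line 2883 the cytarabine derivative was higher for 32 of 36 members and at least 2-fold higher for 14 (8.19% of all genes) and lower for 1 (4.89%), with a median log2 ratio of 0.88. In line 2869 it was lower for 28 of 36 and at least 2-fold lower for 11 (6.90%) and higher for 1 (10.1%), with a median of -0.43.

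Line 2883 was the 1 line with a derivative for every drug, all set against the same parental culture. Of its 6 libraries, the etoposide derivative held the highest value for 24 of 36 members (17.8% of all genes) and the vincristine derivative, which had the highest mitochondrial share of reads, the lowest for 27 (14.4%). Pgk1, for example, was at 20.5 FPKM with cytarabine, 10.1 FPKM with vincristine, 40.4 FPKM with etoposide, 27.3 FPKM with prednisone and 42.8 FPKM with methotrexate, against 23.9 FPKM in the parental culture. Ndrg1 was at 9.17, 2.31, 25.1, 9.18 and 18.2 FPKM in the same order of drugs, against 9.34 FPKM. For both genes the cytarabine and prednisone derivatives stood near the parental culture, with vincristine below and etoposide and methotrexate above.

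**Figure D4:**
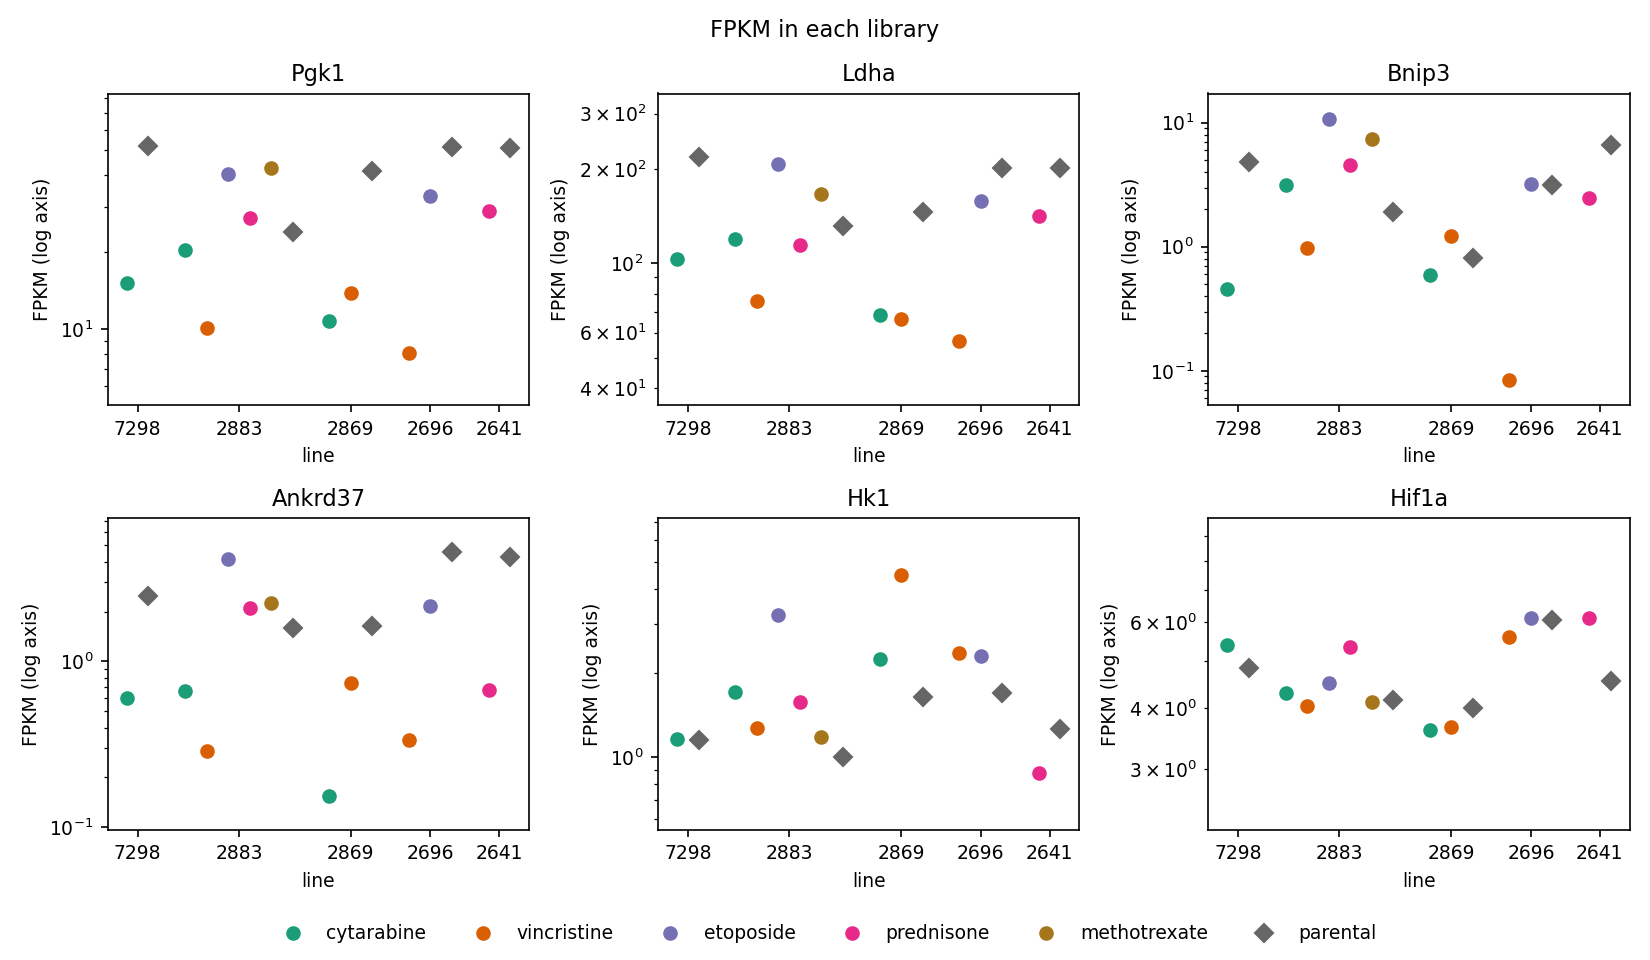
FPKM (logarithmic vertical axis) of Pgk1, Ldha, Bnip3, Ankrd37, Hk1 and Hif1a in each of the 16 libraries, by line, with resistant derivatives (circles, coloured by drug) left of the parental culture (diamonds); each point is 1 library. Pgk1 and Ldha are lowest in vincristine derivatives and the cytarabine derivative of 2869, Bnip3 spans 0.0843 to 10.7 FPKM, and Hif1a keeps within 3.61 to 6.14 FPKM.

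The prednisone derivatives had a median above the parental level in line 2883 and below it in line 2641. In the derivative of 2883, 4 members were at least 2-fold higher (5.39% of all genes) and 0 lower (4.54%), with a median ratio of 1.33, and in that of 2641, 0 were higher (2.84%) and 9 lower (6.96%), with a median ratio of 0.629. In the model the median was -0.31, beside 0.00 over all genes; it was -0.09 without either library of 2641 and -0.52 without the prednisone derivative of 2883. Ldha had 114 and 142 FPKM in the prednisone derivatives of 2883 and 2641, against 130.9 and 201.5 FPKM in their parental cultures, and Gapdh had 67.2 and 97.6 FPKM, against 76.8 and 127 FPKM. Pfkp had 1.27 and 1.64 FPKM, against 2.18 and 5.36 FPKM. Higd1a had 6.15 and 5.55 FPKM in the derivatives, against 6.25 and 7.39 FPKM, and Egln3, a prolyl hydroxylase strongly induced by hypoxia, had 6.18 and 12.5 FPKM, against 7.58 and 16.1 FPKM. These 5 were lower in both lines, and the groups overlapped for Ldha, Gapdh and Egln3 but not for Pfkp or Higd1a. Lower in both lines were 7 members (27.0% of all genes) and higher in both 2 (26.5%).

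The members higher in both prednisone derivatives were Hif1a, with 5.33 and 6.14 FPKM in the derivatives of 2883 and 2641 against 4.16 and 4.56 FPKM, and the phosphoglucomutase gene Pgm2, with 0.585 and 0.461 FPKM against 0.375 and 0.447 FPKM. The log2 fold changes were 0.31 ± 0.12 for Hif1a (limma adjusted p = 0.523) and 0.09 ± 0.14 for Pgm2 (0.870), -0.59 ± 0.26 for Ldha, -1.39 ± 0.65 for Pfkp, -0.46 ± 0.23 for Gapdh, -0.35 ± 0.24 for Higd1a and -0.62 ± 0.47 for Egln3 (0.545 to 0.687, n = 2 derivatives). Without the line term the value of Pgm2 was -0.19. Limma called 0 of 36 members, beside 0.0215% of all genes. Higher at an unadjusted limma p under 0.05 were 2 members (4.43% of all genes), Hif1a and Aldoc, and 0 were lower (4.74%). Aldoc had 11.7 FPKM with prednisone in line 2883 against 0.891 FPKM, but 0.133 FPKM in line 2641 against 0.142 FPKM. It reached 1 FPKM only in resistant derivatives of 2883, so it entered the test through libraries where it was high. In line 2883 Vegfa had 6.31 FPKM with prednisone against 1.82 FPKM and the histone demethylase gene Kdm3a 11.2 FPKM against 4.53 FPKM, while in line 2641 Vegfa had 0.656 FPKM against 3.48 FPKM and Kdm3a 3.81 FPKM against 6.84 FPKM; these were named after their values were seen.

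The single methotrexate derivative, of line 2883, was set beside its parental library, and with 1 culture no test was made. Of 36 members, 31 were higher, 8 of them at least 2-fold (4.97% of all genes), and 1 was at least 2-fold lower (5.33%), with a median ratio of 1.53 beside 0.923 over all genes. The highest ratios were those of P4ha2, a collagen prolyl hydroxylase (564 reads against 51, a ratio of 9.55, 95% interval 7.16 to 13.0), Car9 (24 reads against 5, 4.14, 1.55 to 13.9), Bnip3 (7.39 FPKM against 1.90 FPKM, 3.90), Eno1 (90.7 FPKM against 30.3 FPKM, 2.99) and Vegfa (4.59 FPKM against 1.82 FPKM, 2.52). Aldoc, the brain-type aldolase, had the lowest ratio, with 3 reads against 52 (0.0498, 0.00995 to 0.154). Pgm2 was at 0.767 of the parental level, Ldhb at 0.859, Egln3 at 0.912 and Hif1a at 0.993.

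As 1 group, the 11 resistant cultures had a median log2 fold change of -0.43, beside 0.00 over all genes, with 32 of 36 members below 0. No member had the same sign in all 11 derivatives. Limma called 0 of 36 members and 0% of all genes; at an unadjusted p under 0.05, 6 members were lower (5.94% of all genes) and 0 higher (3.80%). Pgk1 was at 8.06 FPKM at its lowest, 20.5 FPKM at its median and 42.8 FPKM at its highest in resistant cultures, against 23.9, 50.8 and 52.1 FPKM in parental cultures, a log2 difference of -1.06 ± 0.39 with an adjusted p of 0.451 by limma. The groups overlapped, and the etoposide, prednisone and methotrexate derivatives lay above the lowest parental value. As every resistant library was deeper than every parental one, depth and resistance cannot be told apart in this comparison.

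Hif1a itself differed least between the cultures. It had 3.61 FPKM at its lowest, 4.50 FPKM at its median and 6.14 FPKM at its highest in resistant cultures, against 4.00, 4.56 and 6.05 FPKM in parental cultures. The ratio of the highest to the lowest of the 16 values was 1.70, and for the other 35 members past the filter it was at least 2.78. That ratio was 127 for Bnip3, 96.5 for Ndrg1 and 29.6 for Ankrd37. The level of Hif1a mRNA is not a measure of HIF1 protein, which was not measured here. Egln3, in contrast, had 1.64, 6.92 and 15.7 FPKM at the lowest, median and highest in resistant cultures, against 7.25, 14.2 and 22.9 FPKM in parental cultures.

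Balance between isoenzymes was computed per kilobase of exon within each library. All annotated exons counted towards the length, for example 13401 bases for Pfkp and 6675 for Pfkl, or 3310 for Ldha and 1570 for Ldhb. The absolute shares depend on these lengths and are uncertain. Hk1 made up 67.2%, 79.1% and 70.2% of the hexokinase signal of Hk1 and Hk2 in the vincristine derivatives of 2883, 2696 and 2869, against 50.3%, 28.8% and 56.4% in their parental cultures. In line 2696 Hk2, the inducible hexokinase that HIF1 targets, had 0.984 FPKM in the vincristine derivative against 6.60 FPKM. With cytarabine the Hk1 share was 45.3%, 55.8% and 69.8% in lines 7298, 2883 and 2869, against 32.2%, 50.3% and 56.4%, and with etoposide it was 52.3% and 41.1% in lines 2883 and 2696, against 50.3% and 28.8%. It was thus above the parental share in all 8 derivatives of these drugs, while in the methotrexate derivative it was 39.8% against 50.3%. In prednisone derivatives it was 45.8% and 33.5% in lines 2883 and 2641, against 50.3% and 26.2%.

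Ldhb, which favours the use of lactate, made up 18.4% of the lactate dehydrogenase signal in the cytarabine derivative of 2869 against 3.41% in its parental culture, with 5.83 FPKM against 1.95 FPKM. In the vincristine derivatives its share was 26.0%, 17.9% and 7.91% in lines 2883, 2696 and 2869, against 21.8%, 6.71% and 3.41%, and in etoposide derivatives 9.02% and 4.84% in lines 2883 and 2696, against 21.8% and 6.71%. Thus it stood above the parental share in the 3 vincristine derivatives and below it in both etoposide derivatives. Pfkp made up 45.9% of the phosphofructokinase signal in the cytarabine derivative of 2883 against 22.0% in its parental culture, and 7.05% in the vincristine derivative of 2696 against 33.1%. Aldoc was near 0 in most cultures and reached 11.7 FPKM (967 reads) in the prednisone derivative of 2883, 4.69 FPKM (322 reads) in the etoposide derivative and 190 reads in the vincristine derivative, against 0.891 FPKM (52 reads) in the parental culture of that line. Even there it was at most 6.09% of the aldolase signal. Aldoa, the main aldolase, had 39.6, 22.9 and 36.2 FPKM in the vincristine derivatives of 2883, 2696 and 2869, against 53.8, 159 and 72.5 FPKM in their parental cultures. Bnip3l had 6.13, 4.42 and 2.23 FPKM, against 5.94, 8.54 and 3.87 FPKM, and so was lower in lines 2696 and 2869. P4ha1 had 0.927, 1.11 and 2.63 FPKM in the vincristine derivatives of 2883, 2696 and 2869, against 1.70, 4.53 and 2.78 FPKM, and P4ha2 had 0.115, 0.117 and 0.0131 FPKM, against 0.133, 2.69 and 0.0284 FPKM.

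None of the 4 members under the filter reached 1 FPKM in 2 libraries. FPKM values here fit the whole gene span, 255768 bases for Gbe1 and 65293 for Mxi1, so long genes score lower. Per kilobase of exon the parental medians of Gbe1 and Mxi1 were 5.84 and 5.83. Those of P4ha2 (2.75) and Car9 (0.182), which entered the tests, were lower. Eno2, the neuronal enolase, was seen in line 2883, with 43 reads in the vincristine derivative, 28 in that of cytarabine, 23 in that of etoposide, 20 in that of prednisone and 1 in that of methotrexate, against 12 in the parental culture; in other lines it had at most 4 reads. Pfkfb4, which controls the level of fructose 2,6-bisphosphate as Pfkfb3 does, had 201 reads in the prednisone derivative of 2883 against 31, and 0 reads in the etoposide derivative of 2696 against 75, at most 0.0306 of the parental level with 3 reads taken as the floor. Pfkfb3 had 1.02, 1.37 and 2.30 FPKM in the vincristine derivatives of 2883, 2696 and 2869, against 1.94, 3.36 and 1.55 FPKM. Mxi1, a repressor that opposes Myc, lay between 0.251 and 0.819 FPKM in resistant cultures, against 0.370 to 1.02 FPKM in parental ones, and the glycogen branching enzyme gene Gbe1 between 0.0217 and 0.141 FPKM, against 0.0573 to 0.139 FPKM.

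Several members have near-identical copies elsewhere in the genome, among which reads of the same sequence may be divided. A copy was counted where at least 90% of bases matched over at least 50% of the copy, which applied to 11 members and not to 29. Of the reads on a gene and its copies, the copies held 76.4% to 79.6% per library for Gapdh, 69.9% to 72.2% for Pgk1 and 64.2% to 66.8% for Eno1, but 2.47% to 3.05% for Ldha and 0.226% to 0.597% for Aldoa. The copies of Pgk1 are the pseudogenes Gm5537 and Pgk1-rs7, each identical to it over the matched length. Levels of these genes against other genes are therefore uncertain. For Pgk1 and Eno1, ratios between cultures changed little when the copies were added. In the vincristine derivative of 2696 the ratio of Pgk1 was 0.150 with the copies and 0.157 without, and that of Eno1 0.103 and 0.104. Copies held 18.3% to 26.2% of reads for Bnip3l and 6.21% to 16.6% for Bnip3, and some ratios near 1 changed side. Bnip3l in the etoposide derivative of 2883 was at 1.06 with the copy and 0.981 without. Bnip3 in that of 2696 was at 0.979 with the copies and 1.02 without. The largest shift for Gapdh was in the cytarabine derivative of 2883, at 0.983 with copies and 0.848 without.

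**Figure D5:**
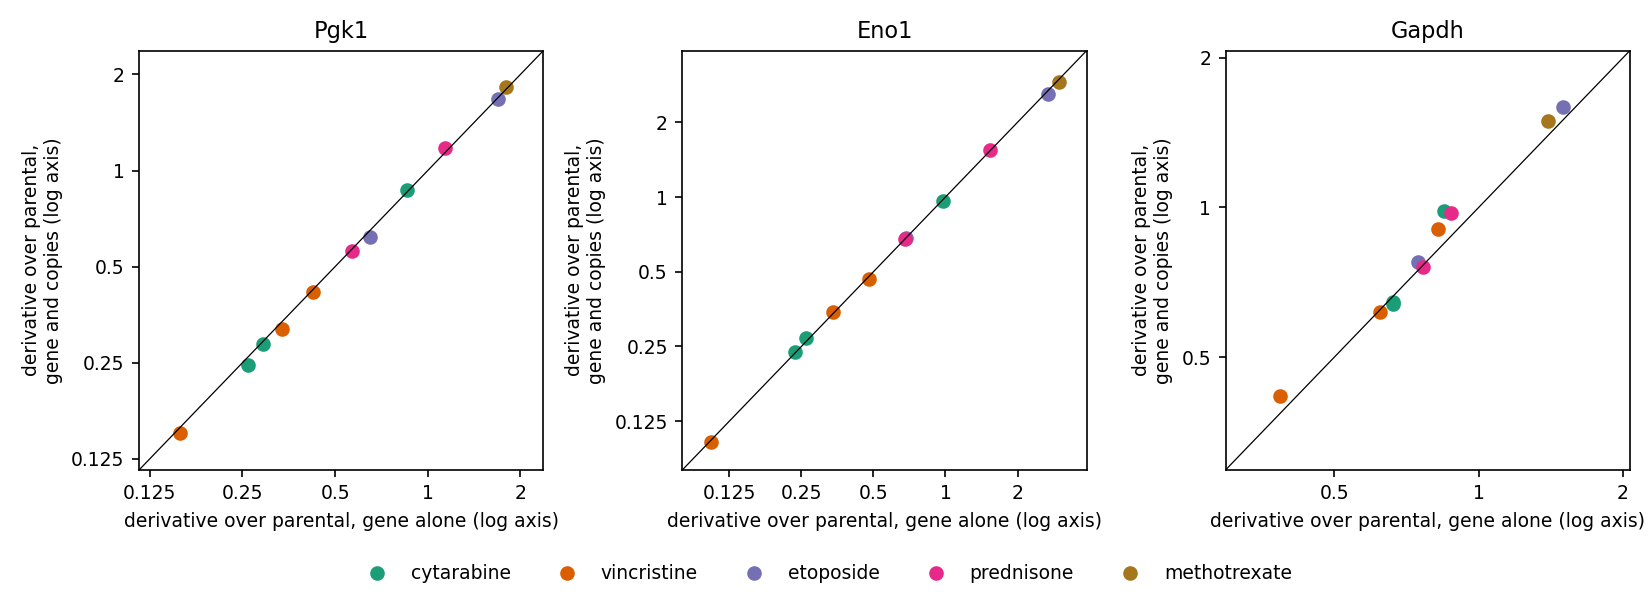
Ratio of each of the 11 derivatives to its parental library for Pgk1, Eno1 and Gapdh, from the gene alone (horizontal, log axis) and from the gene with its copies (vertical, log axis); points are derivatives, coloured by drug, and the line marks equality. Points lie on or near the line for Pgk1 and Eno1, and up to 0.983 against 0.848 away from it for Gapdh.

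Exons of some members overlap a gene on the opposite strand, over 22.7% of exonic bases for Ankrd37, 22.5% for Higd1a, 22.3% for Bnip3 and 19.8% for Fam162a. The library kit keeps strand, but whether strand was used in counting is not given in the sources used here. Part of the reads of these members may thus belong to the partner gene. Overlaps with a gene on the same strand, which strand cannot resolve, covered 15.3% of exonic bases for Pkm, 10.2% for Pfkm and 2.51% for Hif1a.

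Other genes of the pathway were read from lists of related genes. Among 6 tested genes of glucose and lactate transport, the median log2 ratio to the parental library was 1.42 in the etoposide derivative of 2883 and -0.34 in that of 2696, and -0.18, -1.54 and 0.11 in the vincristine derivatives of 2883, 2696 and 2869. Among 16 tested other hypoxia induced genes, 10 were at least 2-fold lower in the vincristine derivative of 2696 (8.59% of all genes) and 6 at least 2-fold higher in the etoposide derivative of 2883 (9.14%), and 6 were lower with vincristine at an unadjusted p under 0.05 (7.91%). For 7 tested genes of the pentose phosphate pathway the median lay between -0.15 and 0.21 over the 11 derivatives, and for 8 tested genes of pyruvate entry to mitochondria between -0.40 and 0.13. For 6 regulators of the HIF pathway it lay between -0.20 and 0.19. Limma called 0 genes of these lists in each of the 6 comparisons.

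Among listed genes, 4 were at least 2-fold lower in all 3 vincristine derivatives (0.806% of all genes): Eno1b and Pgk1-rs7, copies that may share reads with the members Eno1 and Pgk1 and so are not separate from them, the mitochondrial adenylate kinase gene Ak4 and Adm, which encodes the peptide hormone adrenomedullin. Ak4 had 0.0848, 0.884 and 0.767 FPKM in the vincristine derivatives of 2883, 2696 and 2869, against 2.65, 1.99 and 1.54 FPKM in their parental cultures. Adm had 0.162, 0.282 and 1.24 FPKM, against 0.995, 12.9 and 3.06 FPKM. Pgam2, the muscle phosphoglycerate mutase, was at least 2-fold higher in both etoposide derivatives (0.902% of all genes), with 4.06 and 194 FPKM in lines 2883 and 2696, against 1.58 and 26.3 FPKM. In the vincristine derivatives of these lines it had 6.81 and 226 FPKM.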

How the data were processed

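RNA was extracted with RNeasy and libraries were made with the Illumina Stranded mRNA Prep kit, per the labels' protocols. The authors deposited FPKM values per gene and library; reads were trimmed with cutadapt, aligned with STAR to mm10 and quantified in Partek, per the submitters' processing notes. For annotation, strand setting and reads with several matches, the choice is not given in the sources used here. The values fit a length equal to the whole gene span and an offset of 0.1 read. Reads estimated from them came within 0.05 of a whole number for 70.6% to 75.7% of values, so no count test was run; these estimates served for CPM, ratios and exact binomial intervals, which cover counting error only.

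A gene entered the tests if 2 or more libraries had 1 FPKM or more. Tests used limma 3.58.1 (R 4.3.3) on log2(FPKM + 1), a scale that understates changes of low genes, with line and drug as terms and Benjamini-Hochberg adjustment over 9309 genes. The comparison of all resistant cultures had line and resistance as terms. Each derivative was paired with the parental culture of its line by the labels, and correlated best with it in 11 of 11 cases (r 0.94 to 0.98). No 2 libraries agreed within sampling noise. The code was checked on simulated data with large changes in cytarabine derivatives alone. That check does not show the power for the differences given here. Values per culture are given for up to 5 members per direction and drug with the smallest unadjusted p and the same sign in every derivative, for isoenzymes and for Hif1a. That choice favours members without overlap between groups, and the share of all genes without overlap was not counted. Copies were found with blastn 2.17.0. The members and lists were chosen with earlier results of these data known. Alternatives were no line term, a pseudocount of 0.1, no filter or a filter of 5 FPKM, log2(CPM + 1), median-of-ratios and quantile scaling, a fold of 1.5 and leaving out each library.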

Additional observations from a re-analysis of the deposited data

Results flagged for a closer look

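Eno1 was low in the parental culture of 2883, at 30.3 FPKM, far from the other 4 parental values, and Car9 was high in the parental culture of 2696, at 7.06 FPKM. These 2 were found among 36 members tested in the parental group, and chance gives about 1 in 20 such groups.

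For 3 members every derivative of 1 drug lay on the other side of its parental culture from every derivative of another drug. These differences were not tested, and the share of all genes with such opposite signs was not counted. Of all genes, 15.0% were lower in every cytarabine derivative and 19.5% in every vincristine derivative. Higher in every etoposide derivative were 24.1%, and in every prednisone derivative 26.5%. The log2 ratios of Fam162a were below 0 in cytarabine derivatives, down to -1.11, and above 0 in etoposide derivatives. Those of Pgm2 were below 0 in cytarabine derivatives, down to -0.63, and above 0 in prednisone derivatives. Those of Hif1a were below 0 in vincristine derivatives, down to -0.13, and above 0 in prednisone derivatives. Pgm2 was close to its parental level in the prednisone derivative of 2641, at 0.461 FPKM against 0.447 FPKM.

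Between etoposide and vincristine derivatives 4 members had opposite signs against the parental cultures, by the ratios within each line. The share of all genes with such opposite signs was not counted. Pgam1 and Hif1a were close to the parental level in the etoposide derivative of 2696. Pgam1 had 84.4 FPKM there against 83.5 FPKM, and Hif1a 6.13 FPKM against 6.05 FPKM. The etoposide term of Kdm3a in the model was -0.09 ± 0.34, though its ratio was above 1 in each line. The model differences, etoposide minus vincristine, were 1.39 ± 0.33 for Pgam1, 1.03 ± 0.21 for Fam162a, 0.64 ± 0.35 for Kdm3a and 0.11 ± 0.12 for Hif1a. Limma adjusted p-values over all genes were 0.327, 0.327, 0.570 and 0.760, so none was called.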

How the results depend on the processing

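Named members were chosen for 1 sign in every derivative and almost no gene was called, so keeping a direction and a side of the threshold under the alternatives says little about stability. Without the line term, which is the fit with no replicate block, limma called 1 member for vincristine (Pgk1); 3 values reversed, Pgm2 for prednisone (-0.19) and Ldhb for etoposide minus vincristine (0.033) without the line term, and Hk1 for cytarabine (-0.012) without the parental culture of 2869. Leaving out 1 library gave -0.012 to 0.21 for Hk1 with cytarabine, and 0.87 to 1.38 for the median difference of etoposide minus vincristine. That median was 1.46 with a pseudocount of 0.1, 1.31 with a filter of 5 FPKM and 1.49 on log2(CPM + 1), beside 1.10. The other medians without 1 library ranged over -0.83 to -0.43 for cytarabine, -1.04 to -0.53 for vincristine, 0.03 to 0.67 for etoposide, -0.52 to -0.09 for prednisone and -0.66 to -0.25 for all resistant cultures. The last was -0.66 without the parental culture of 2883, -0.25 without that of 2696 and -0.28 without the vincristine derivative of 2696; the causes were not tested.

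At 1.5-fold in place of 2-fold the members past the fold numbered 10 (cytarabine, 2883), 19 (cytarabine, 2869), 11 (etoposide, 2696), 19 (methotrexate), 14 and 20 (prednisone, 2883 and 2641) and 19 each (vincristine, 2883 and 2869). With a filter of 5 FPKM, which tests fewer genes, they numbered 3 (cytarabine, 2883), 14 (etoposide, 2883), 4 (vincristine, 2883) and 7 (vincristine, 2869). Depth limits members with few reads, such as Car9, Aldoc and P4ha2 in line 2883.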
